A study of Mus musculus with 9 samples.

Results

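The mGluR6 cascade is the chain of proteins through which ON bipolar cells of the retina turn glutamate from photoreceptors into a sign-inverted voltage signal. It was followed here through 10 genes chosen by name, *Grm6*, *Trpm1*, *Nyx*, *Gpr179*, *Gnao1*, *Lrit3*, *Rgs7*, *Rgs11*, *Pcp2* and *Prkca*, out of 25239 gene names in the tables. All 10 were listed in every library, and all 10 passed the filter of a mean of at least 1 TPM (a level corrected for transcript length that sums to the same total in each library) that left 15198 genes for testing. Whole retinas of C57BL/6J mice were sequenced at P42 as 9 libraries, each made from a pair of retinas of 1 mouse. In 3 mice the *Rbpms* locus was wild type (+/+), in 3 it carried 1 *Rbpms*-CreERT2 allele (Cre/+) and in 3 it carried 2 (Cre/Cre). The mice came from the same litters, but no source used here says which mouse came from which, so litter is not in the fit. The allele joins CreERT2, a Cre recombinase that tamoxifen switches on, to the end of the RBPMS protein by way of a P2A peptide. RBPMS binds RNA and marks retinal ganglion cells, and no tamoxifen is named for these mice. The question was whether the knock-in changed the transcripts of the retina, and the comparisons set each knock-in genotype against +/+ and Cre/Cre against Cre/+.

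In darkness, photoreceptors release glutamate onto the dendrites of ON bipolar cells, where the receptor mGluR6 (*Grm6*) activates the G protein Go (*Gnao1* encodes its alpha subunit) and the cation channel TRPM1 is held closed. Light stops the release, RGS proteins speed the shut-off of Go, and the channel opens. Nyctalopin (*Nyx*), LRIT3 and GPR179 hold the receptor, the channel and the RGS proteins together at the synapse, and loss of *GRM6*, *TRPM1*, *NYX*, *GPR179* or *LRIT3* causes complete congenital stationary night blindness, in which the b-wave of the electroretinogram is lost. *Pcp2*, a GoLoco protein that binds Go alpha, and *Prkca*, the protein kinase C that marks rod bipolar cells, complete the list.

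No gene of the cascade passed the test in any comparison. In Cre/+ the 10 genes stood at 94.8% to 109.2% of their +/+ means, and in Cre/Cre at 81.9% to 100.9%. The lowest in Cre/Cre were *Pcp2* at 81.9%, *Nyx* at 82.9% and *Grm6* at 85.7% of the +/+ mean, and the highest were *Rgs7* at 100.6% and *Lrit3* at 100.9%. Of the 10 genes, 9 had their lowest value of all libraries in a single library, Cre/Cre replicate 1, beside 38.6% of all tested genes. Median-ratio scaling divides each library by its typical ratio to the average library. After it 3 genes had their lowest value there, beside 12.3%, 2 in Cre/Cre replicate 2, beside 9.6%, and 3 in Cre/Cre replicate 3, beside 10.6%. The remaining genes had it in +/+ replicates 1 and 2, 1 in each, beside 7.61% and 10.4%.

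The libraries held 4.05 to 4.65 aligned gigabases, and the deposited coverage over the weakest gene of the cascade, *Nyx*, was 14.3 to 23.95 reads per base against 106.2 to 187.9 for *Grm6*. *Rbpms*, the targeted gene, stood at 38.4 to 43.4 TPM in +/+, 31.3 to 33.1 in Cre/+ and 19.1 to 24.2 in Cre/Cre, in the order of the labels. In Cre/Cre replicate 1 the ribosomal precursor *Rn45s* took 9.21% of all TPM against 0.0827% to 0.336% in the other 8 libraries, and the typical gene was scaled down there, with a median ratio of 0.917 to the average library against 0.985 to 1.03. That library held the lowest value of 38.6% of all tested genes, or 12.3% after median-ratio scaling, and the main results are given without it as well. In bulk tissue, fewer cells of a type and less RNA per cell cannot be told apart. *Xist*, expressed from the inactive X chromosome, stood at 515.9 to 585.1 TPM in 6 libraries and at 2.08 to 3.16 in Cre/+ replicate 3, Cre/Cre replicate 1 and Cre/Cre replicate 3.

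The genes lie on 7 chromosomes of mm10. *Grm6* (chromosome 11, plus strand, 50850685 to 50866208), *Gpr179* (minus strand, 97332110 to 97352356) and *Prkca* (minus strand, 107933387 to 108343888) share chromosome 11. *Gnao1* (chromosome 8, plus strand, 93810838 to 93969388) and *Pcp2* (minus strand, 3623369 to 3625547) lie on the chromosome of the knock-in, 59.88 and 30.16 megabases from *Rbpms*. *Trpm1* lies on chromosome 7 (plus strand, 64153835 to 64269759), *Nyx* on chromosome X (plus strand, 13461090 to 13489321), *Lrit3* on chromosome 3 (minus strand, 129783941 to 129804136), *Rgs7* on chromosome 1 (minus strand, 175059076 to 175492545) and *Rgs11* on chromosome 17 (plus strand, 26202941 to 26211324).

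The promoters of these genes differed in base composition. Entries of the RefSeq promoter table (GRCm38.p6, the assembly of mm10) whose start site was the deposited start of the gene were found for 9 of the 10 genes, all but *Rgs11*. Over the 250 bases before the start, the GC content was 72.4% for *Rgs7*, 76.4% for *Gnao1* and 76.8% for *Prkca*, with 22, 36 and 39 CpG dinucleotides, and these 3 genes are used by many kinds of neuron. The other 6 genes had a GC content of 43.2% to 58.8% and 1 to 6 CpG dinucleotides, beside a median of 52.4% and 6 CpG over all 32851 promoters. The letters TAATC, searched on both strands, the core that the photoreceptor and bipolar factors CRX and OTX2 read, occurred in 3 of the 9 promoters and in 19.8% of all promoters of this length. The longer form TAATCC, which contains the shorter one, occurred in 1 of the 9, that of *Trpm1*, and in 6.25% of all. Another motif, TAATTA, read by other homeodomain factors, occurred in 0 of the 9 and in 4.84% of all. These are matches of letters on either strand and not measured sites. The sequences of the receptor, the channel, both leucine-rich repeat proteins and *Pcp2* are shown with that of *Gnao1* for the contrast in CpG content. They run 5′ to 3′ on the gene's strand and end at the base before the start, and capitals mark the first motif or its longer form on either strand, so that a line without capitals holds neither.
Grm6, chr11:50850435-50850684, plus strand: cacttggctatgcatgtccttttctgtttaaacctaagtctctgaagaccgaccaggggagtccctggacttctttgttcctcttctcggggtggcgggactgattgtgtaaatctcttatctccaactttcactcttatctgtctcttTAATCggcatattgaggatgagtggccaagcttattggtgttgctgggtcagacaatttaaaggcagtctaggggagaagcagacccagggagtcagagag
Trpm1, chr7:64153585-64153834, plus strand: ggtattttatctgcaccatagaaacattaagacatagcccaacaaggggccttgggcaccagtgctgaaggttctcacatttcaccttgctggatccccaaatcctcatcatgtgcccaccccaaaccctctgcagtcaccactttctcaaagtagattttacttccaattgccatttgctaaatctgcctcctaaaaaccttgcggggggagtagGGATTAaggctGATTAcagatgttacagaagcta
Lrit3, chr3:129804137-129804386, minus strand: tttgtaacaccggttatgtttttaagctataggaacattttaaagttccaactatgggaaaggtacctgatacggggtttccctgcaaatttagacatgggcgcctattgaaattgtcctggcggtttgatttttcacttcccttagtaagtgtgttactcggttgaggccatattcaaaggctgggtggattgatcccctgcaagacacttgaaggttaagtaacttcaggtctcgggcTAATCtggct
Nyx, chrX:13460840-13461089, plus strand: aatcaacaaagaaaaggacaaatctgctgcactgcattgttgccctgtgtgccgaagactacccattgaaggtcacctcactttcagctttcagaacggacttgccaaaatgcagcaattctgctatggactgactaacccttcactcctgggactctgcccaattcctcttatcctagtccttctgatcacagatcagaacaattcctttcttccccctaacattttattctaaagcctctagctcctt
Pcp2, chr8:3625548-3625797, minus strand: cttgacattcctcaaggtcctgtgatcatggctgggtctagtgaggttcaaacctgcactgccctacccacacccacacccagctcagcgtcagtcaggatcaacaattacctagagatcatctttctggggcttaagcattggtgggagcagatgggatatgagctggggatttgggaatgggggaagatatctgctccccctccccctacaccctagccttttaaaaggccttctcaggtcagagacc
Gnao1, chr8:93810588-93810837, plus strand: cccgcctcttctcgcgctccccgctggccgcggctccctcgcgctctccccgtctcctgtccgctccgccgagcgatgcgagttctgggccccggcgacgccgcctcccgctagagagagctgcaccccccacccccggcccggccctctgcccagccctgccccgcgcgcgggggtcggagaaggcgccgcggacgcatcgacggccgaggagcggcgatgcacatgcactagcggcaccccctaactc
In the *Grm6* promoter the match begins 101 bases before the start, in that of *Lrit3* 10 bases before it, and in that of *Trpm1* 34 and 23 bases before it.

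The levels in +/+ retinas spanned from 18.0 TPM for *Nyx* to 582.1 TPM for *Pcp2*. *Pcp2* (582.1 ± 74.9 TPM, SD, n = 3) was followed by *Gnao1* (364.3 ± 6.75), *Trpm1* (207.1 ± 9.24), *Prkca* (165.8 ± 7.72), *Grm6* (132.2 ± 10.3), *Rgs11* (108.1 ± 0.756), *Lrit3* (98.6 ± 4.40), *Gpr179* (93.0 ± 5.06), *Rgs7* (61.1 ± 1.82) and *Nyx* (18.0 ± 0.98). Neighbours in this order did not overlap in the +/+ libraries, except *Lrit3* and *Gpr179*. The order was the same in Cre/+ and Cre/Cre apart from *Lrit3* and *Rgs11*, which changed places and overlapped in both knock-in genotypes. *Rgs11* also overlapped *Gpr179* in both, and *Grm6* overlapped *Lrit3* in Cre/Cre. By its mean over 9 libraries *Pcp2* ranked 197 among the 15198 genes tested, *Gnao1* 356, *Trpm1* 794, *Grm6* 1574 and *Nyx* 9390. *Grm6* was the most abundant receptor of its group, at 4.21 ± 0.379 times *Grm8*, 7.59 ± 0.967 times *Grm7* and 15.9 ± 3.76 times *Grm4* in +/+ (SD, n = 3). *Trpm1* stood at 2.09 ± 0.0464 times *Trpm3* and 3.59 ± 0.218 times *Trpm7*. *Gnao1* stood at 1.25 ± 0.117 times *Gnat2*, the cone transducin, and 1.79 ± 0.097 to 9.42 ± 0.652 times *Gnai1*, *Gnai2*, *Gnai3* and *Gnaz*. *Gpr179* stood at 3.28 ± 0.150 times *Gpr158*, *Pcp2* at 2.88 ± 0.338 to 10.7 ± 2.93 times the GoLoco genes *Gpsm1*, *Gpsm2* and *Gpsm3*, and *Prkca* at 2.26 ± 0.171 times *Prkcb*, the next most abundant of the other kinase C genes compared. *Rgs7* and *Rgs11* stood at 1.88 ± 0.139 and 3.33 ± 0.198 times *Rgs6*. Some paralogs were more abundant than the cascade gene. *Lrit3* stood at 0.355 ± 0.0125 times *Lrit1* and 0.328 ± 0.0093 times *Lrit2*, *Rgs7* and *Rgs11* at 0.0723 ± 0.00499 and 0.128 ± 0.00604 times *Rgs9*, the RGS gene of photoreceptors, and *Gnao1* at 0.0265 ± 0.00132 times *Gnat1*, the rod transducin.

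**Figure D1:**
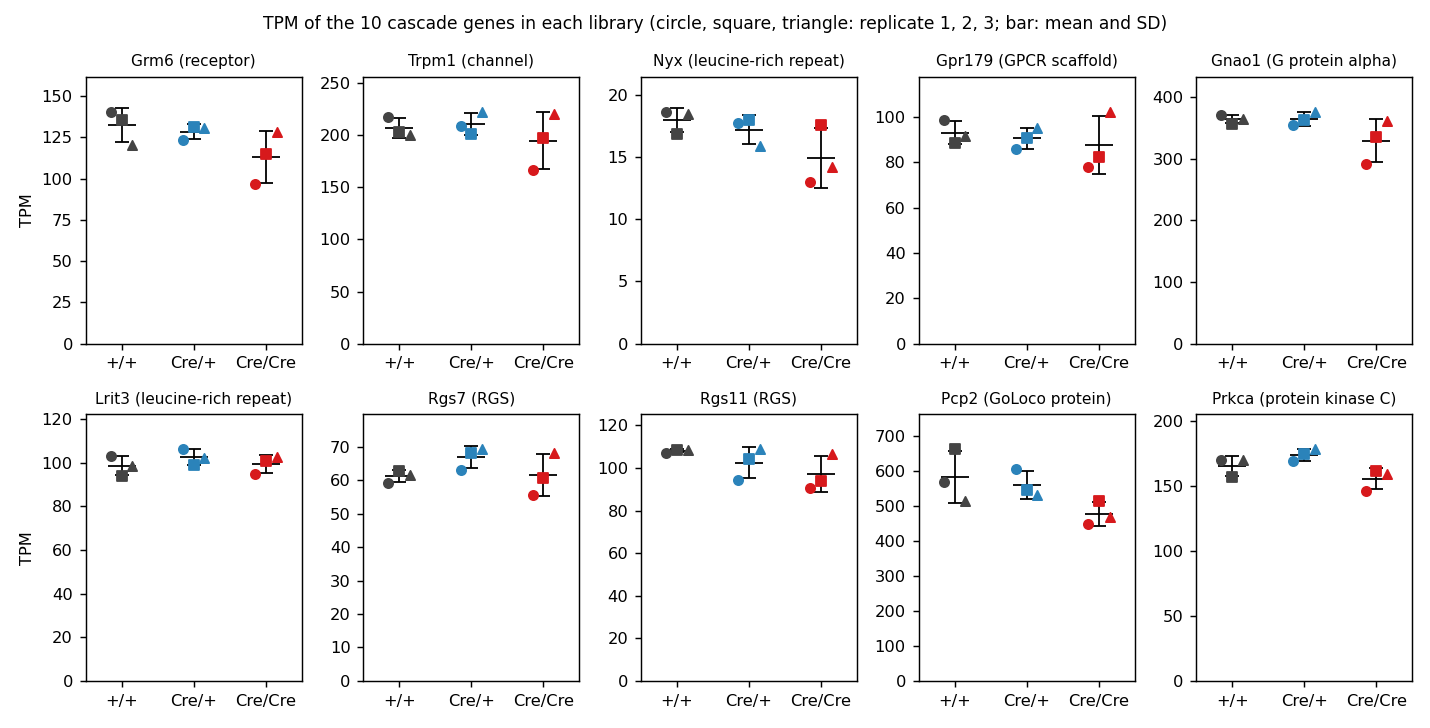
TPM (linear axis from 0) of the 10 cascade genes in +/+, Cre/+ and Cre/Cre retinas, with 1 symbol per library (circle, square and triangle for replicates 1, 2 and 3) and the mean and SD of 3 libraries as bars. Cre/Cre replicate 1 is the lowest symbol of every panel except *Lrit3*, whose lowest is +/+ replicate 2 at 94.1 TPM.

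*Grm6*, the receptor, measured 140.4, 135.6 and 120.6 TPM in +/+ replicates 1, 2 and 3, then 123.1, 131.4 and 130.7 in Cre/+, and 96.9, 114.7 and 128.2 in Cre/Cre. The Cre/Cre libraries were the most scattered, and the highest of them lay above the lowest +/+ library, so the groups overlapped. The log2 fold change in Cre/Cre against +/+ was -0.23 (SE 0.10, 95% interval -0.43 to -0.03, unadjusted p = 0.03), with a limma adjusted p of 0.67. Without Cre/Cre replicate 1 it was -0.12 (unadjusted p = 0.145, limma adjusted p = 0.628), and with *Xist* as a covariate, as described for *Nyx*, -0.22 (unadjusted p = 0.0859). In Cre/+ the log2 fold change was -0.04, with an interval from -0.24 to 0.16.

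*Gnao1*, the alpha subunit of Go, is used by most retinal neurons and not by ON bipolar cells alone. It measured 370.9, 357.4 and 364.4 TPM in +/+, 354.9, 362.8 and 376.4 in Cre/+, and 291.8, 335.4 and 361.8 in Cre/Cre. Cre/Cre replicates 1 and 2 lay below every library of the other genotypes, while replicate 3 lay among them. After median-ratio scaling all 3, at 318.3, 328.9 and 351.2, lay below the lowest +/+ library (356.5) and the lowest Cre/+ library (351.3). The log2 fold change was -0.15 in Cre/Cre against +/+ (interval -0.32 to 0.02, limma adjusted p = 0.777) and 0.0015 in Cre/+ (interval -0.17 to 0.17). Without Cre/Cre replicate 1 the former was -0.06 (limma adjusted p = 0.731).

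*Trpm1*, the cation channel that the cascade closes, measured 217.5, 203.6 and 200.1 TPM in +/+, 208.8, 201.5 and 222.6 in Cre/+, and 166.6, 197.3 and 220.7 in Cre/Cre. Cre/Cre replicates 1 and 2 were the lowest of the 9 libraries and replicate 3 was the second highest, so the groups overlapped. The log2 fold change in Cre/Cre against +/+ was -0.10 (interval -0.29 to 0.10, limma adjusted p = 0.90). Without Cre/Cre replicate 1 its sign changed, to 0.012. In Cre/+ it was 0.03 (interval -0.17 to 0.22).

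*Nyx*, the leucine-rich repeat protein nyctalopin, measured 18.6, 16.9 and 18.5 TPM in +/+, 17.7, 18.0 and 15.9 in Cre/+, and 13.0, 17.6 and 14.2 in Cre/Cre. Cre/Cre replicates 1 and 3 were the lowest libraries, and replicate 2 lay within the +/+ range. The log2 fold change in Cre/Cre against +/+ was -0.26 (SE 0.12, interval -0.51 to -0.02, unadjusted p = 0.0369), with a limma adjusted p of 0.695, and -0.18 (unadjusted p = 0.147) without Cre/Cre replicate 1. *Nyx* is the X-linked gene of the list, and its level moved with that of *Xist*. In the 3 libraries with little *Xist* it measured 13.0 to 15.9 TPM, below the 16.9 to 18.6 TPM of the other 6, and after median-ratio scaling 13.8 to 15.6 against 17.2 to 18.3. None of the other 9 genes was separated in this way, and the share of all tested genes so separated was not counted. With *Xist* as a covariate the log2 fold change of *Nyx* in Cre/Cre against +/+ was -0.09 (interval -0.36 to 0.18, unadjusted p = 0.472), with a limma adjusted p of 0.997. All 3 +/+ libraries had high *Xist* and 2 of the 3 Cre/Cre libraries had little, so genotype and *Xist* are largely confounded in these libraries.

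**Figure D2:**
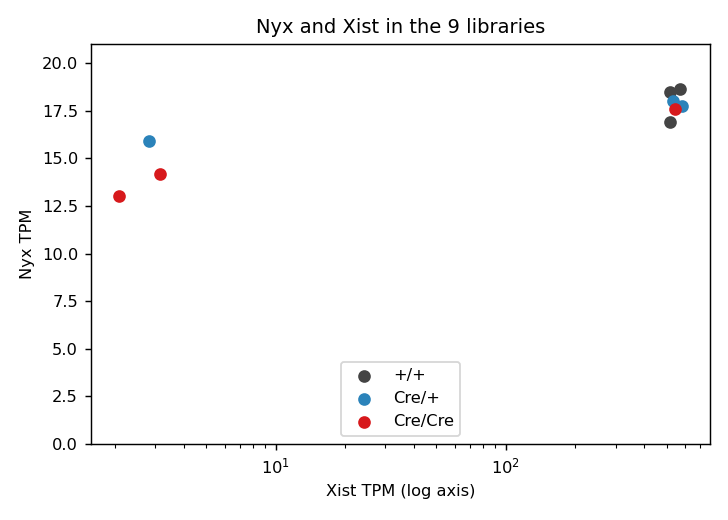
TPM of *Nyx* (linear axis from 0) against TPM of *Xist* (log axis) in the 9 libraries, coloured by genotype. The 3 libraries with 2.08 to 3.16 TPM of *Xist* have 13.0 to 15.9 TPM of *Nyx*, and the 6 with 515.9 to 585.1 have 16.9 to 18.6.

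*Lrit3*, the other leucine-rich repeat gene, measured 102.9, 94.1 and 98.7 TPM in +/+, 106.2, 99.0 and 102.4 in Cre/+, and 94.98, 100.8 and 102.6 in Cre/Cre. The 3 genotypes covered almost the same range, and the pooled spread within genotypes, 0.06 on the log2 scale, was the smallest of the 10 genes. Against +/+ the log2 fold change was 0.06 in Cre/+ (interval -0.10 to 0.21) and 0.01 in Cre/Cre (interval -0.14 to 0.17). *Gpr179*, the orphan receptor that anchors the RGS proteins, measured 98.6, 88.8 and 91.7 TPM in +/+, 85.8, 90.9 and 95.03 in Cre/+, and 78.1, 82.6 and 102.3 in Cre/Cre. Its lowest and its highest library were both Cre/Cre. Its log2 fold change was -0.04 in Cre/+ (interval -0.24 to 0.16) and -0.09 in Cre/Cre against +/+ (interval -0.29 to 0.11, limma adjusted p = 0.909), the latter -0.02 without Cre/Cre replicate 1.

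*Rgs7*, the first of the RGS genes, measured 59.2, 62.8 and 61.4 TPM in +/+, 63.1, 68.0 and 69.2 in Cre/+, and 55.6, 60.8 and 68.2 in Cre/Cre. Its Cre/+ libraries lay above all +/+ libraries, as did those of 11.9% of all tested genes, and its Cre/Cre libraries lay on both sides of them. In Cre/+ the log2 fold change was 0.12 (interval -0.05 to 0.30, limma adjusted p = 0.583), and in Cre/Cre against +/+ it was 0.0047 (interval -0.17 to 0.18). After median-ratio scaling Cre/+ and +/+ overlapped.

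*Rgs11* measured 107.2, 108.6 and 108.4 TPM in +/+, 94.3, 104.4 and 108.8 in Cre/+, and 90.8, 93.7 and 106.6 in Cre/Cre. All Cre/Cre libraries lay below all +/+ libraries, by a margin of less than 1 TPM at the nearest pair, and *Rgs11* was the only 1 of the 10 genes of which this was so, beside 8.05% of all tested genes. After median-ratio scaling it was so of *Rgs11* and *Gnao1*, beside 7.16%. In 0 of the 10 genes did all Cre/Cre libraries lie above all +/+ libraries, beside 2.7%. Cre/Cre against +/+ gave a log2 fold change of -0.16 (interval -0.33 to 0.02, unadjusted p = 0.071), with a limma adjusted p of 0.765. It was -0.11 without Cre/Cre replicate 1 and -0.22 (unadjusted p = 0.0426, limma adjusted p = 0.955) with *Xist* as a covariate. The ratio of *Rgs11* to *Rgs7* within a library does not depend on scaling. It was 1.81, 1.73 and 1.77 in +/+, 1.5, 1.53 and 1.57 in Cre/+, and 1.63, 1.54 and 1.56 in Cre/Cre. Both knock-in genotypes lay below +/+ and overlapped each other, and 3 libraries against 3 allow no p below 0.10 in an exact permutation test. It was 1 of 7 ratios formed between genes of the cascade by role, of which 1 did not overlap between Cre/+ and +/+ and 3 did not overlap between Cre/Cre and +/+, beside 26.3% and 13.5% of all pairs of genes within the TPM range of the cascade that had a value above 0 in every library. Between Cre/Cre and Cre/+ it was 1 of 7, *Trpm1* to *Grm6*, beside 15.7%. The other 2 of the 3 between Cre/Cre and +/+ were *Trpm1* to *Grm6*, at 1.5 to 1.66 in +/+ and 1.72 in each Cre/Cre library, and *Lrit3* to *Nyx*, at 5.33 to 5.57 in +/+ and 5.73 to 7.30 in Cre/Cre.

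*Pcp2* was the most abundant gene of the cascade and the one with the lowest p. It measured 569.8, 662.4 and 514.2 TPM in +/+, 606.7, 545.3 and 531.7 in Cre/+, and 449.3, 514.4 and 467.3 in Cre/Cre. Cre/Cre held the 2 lowest libraries, and its highest lay just above the lowest +/+ library, so the groups met without a gap. Cre/Cre against +/+ gave a log2 fold change of -0.28 (SE 0.09, interval -0.48 to -0.09, unadjusted p = 0.00784), with a limma adjusted p of 0.594. Without Cre/Cre replicate 1 it was -0.24 (unadjusted p = 0.0368), and with *Xist* as a covariate -0.19 (unadjusted p = 0.10). Without +/+ replicate 2, the library with the highest value, it was -0.18 (limma adjusted p = 0.998). Against Cre/+, whose libraries did not overlap those of Cre/Cre, it was -0.23 (interval -0.43 to -0.04, limma adjusted p = 0.74). The gene overlaps *Pet100* on the opposite strand over 867 bases, and since the strand setting of the quantification is not given in the sources used here, reads of the 2 genes there may not have been told apart. *Pet100* itself measured 94.3 to 110.9 TPM.

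*Prkca* measured 170.1, 156.9 and 170.5 TPM in +/+, 169.5, 175.1 and 178.6 in Cre/+, and 146.6, 161.5 and 159.8 in Cre/Cre. Cre/Cre lay below Cre/+ in all libraries and overlapped +/+. Its log2 fold change was -0.09 in Cre/Cre against +/+ (interval -0.24 to 0.07, limma adjusted p = 0.885) and -0.16 against Cre/+ (interval -0.32 to -0.01, unadjusted p = 0.0426), with a limma adjusted p of 0.74 for the latter. They were -0.04 (unadjusted p = 0.475) and -0.12 (unadjusted p = 0.0742) without Cre/Cre replicate 1. The ratio of *Pcp2* to *Prkca* was 3.53 ± 0.622 (SD, n = 3) for +/+, 3.22 ± 0.316 for Cre/+ and 3.06 ± 0.131 for Cre/Cre, and it overlapped between all genotypes.

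**Figure D3:**
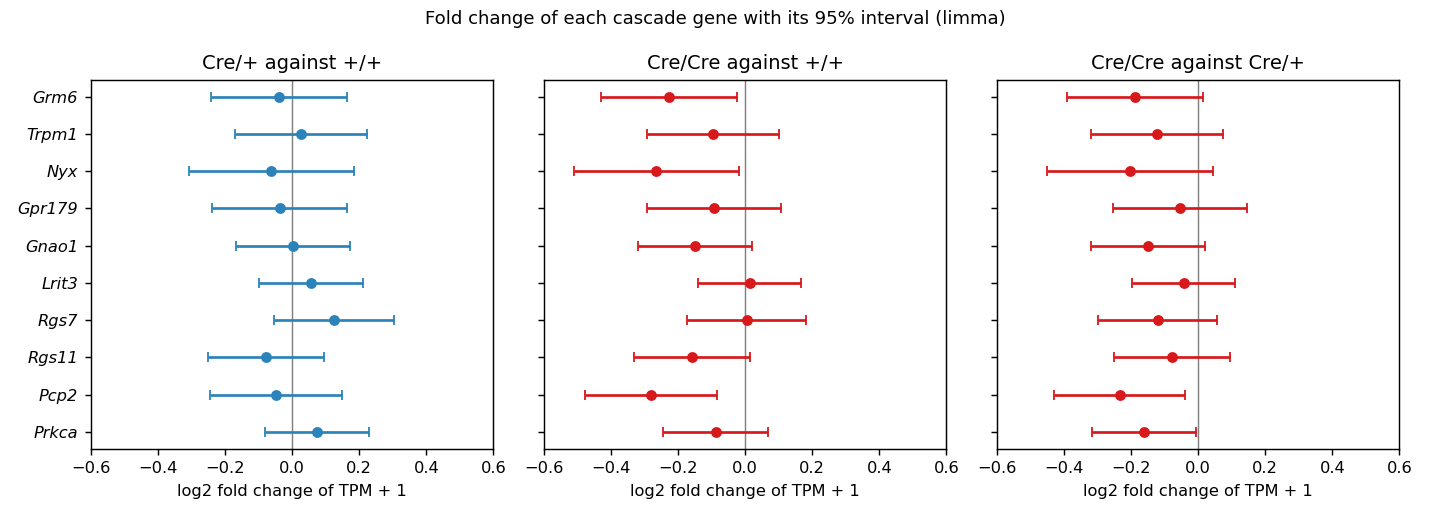
Log2 fold change of TPM + 1 of each cascade gene with its 95% interval from limma, in Cre/+ against +/+, Cre/Cre against +/+ and Cre/Cre against Cre/+. In the middle panel the intervals of *Grm6*, *Nyx* and *Pcp2* lie below 0, and the points of *Lrit3* and *Rgs7* lie at 0.01 and 0.0047.

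Of the 10 genes 0 passed an adjusted p of 0.05 by limma in Cre/+ against +/+, beside 0.00658% of all tested genes, and 0 passed an unadjusted p of 0.05, beside 5.82% lower and 4.9% higher among all tested genes. Of the 10 log2 fold changes 5 were below 0, beside 49.6% of all tested genes, and their median was -0.02 beside 0.0014 over all tested genes. Across the 10 genes the 95% intervals ran from 0.808 to 1.23 times the +/+ value of TPM + 1.

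In Cre/Cre against +/+, 0 of the 10 genes passed an adjusted p of 0.05 by limma, beside 0.00658% of all tested genes. At an unadjusted p of 0.05, *Grm6*, *Nyx* and *Pcp2* were lower, 3 of 10 beside 5.39% of all tested genes, and 0 were higher, beside 1.58%. Values were below 0 for 8 of the 10 genes, beside 57.7% of all tested genes, with a median of -0.12 beside -0.02. Without Cre/Cre replicate 1 the median was -0.05 beside 0.02 over all tested genes, and 1 gene, *Pcp2*, was lower at an unadjusted p of 0.05, beside 3.58% of all tested genes, with 0 higher beside 5.9% and 7 of 10 below 0 beside 43.8%. With median-ratio scaling of all 9 libraries the median was -0.09 beside 0.0031, and 4 genes were below that p, *Gnao1* in addition, beside 4.72%, with 0 higher beside 3.66% and 8 of 10 below 0 beside 49%. With that scaling and without Cre/Cre replicate 1 *Pcp2* alone was lower at that p, beside 5.25%, 0 were higher beside 4.34%, and 8 of 10 were below 0 beside 49.8%. With *Xist* as a covariate 1 gene, *Rgs11*, was lower at that p, beside 2.97%, 0 were higher beside 2.22%, and 9 of 10 were below 0 beside 51.9%. The 95% intervals of the 10 genes ran from 0.702 to 1.13 times the +/+ value of TPM + 1.

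In Cre/Cre against Cre/+, 0 of the 10 genes passed the adjusted p by limma, beside 0.0132% of all tested genes, and *Pcp2* and *Prkca* had an unadjusted p below 0.05, both lower, beside 4.2%, with 0 higher beside 2.38%. These 2 genes were also the 2 of 10 whose Cre/Cre libraries all lay below the Cre/+ libraries, beside 7.23%, and 0 lay above them, beside 4.76%. All 10 log2 fold changes were below 0, beside 59.2% of all tested genes, and their median was -0.14 beside -0.03. This comparison shares its Cre/Cre libraries with the one before. Without Cre/Cre replicate 1, 9 were below 0, beside 44% of all tested genes, with a median of -0.06 beside 0.02. At an unadjusted p of 0.05, 0 were then lower, beside 1.72%, and 0 higher, beside 3.25%. With median-ratio scaling all 10 were below 0, beside 49.2%, with a median of -0.10 beside 0.0029. *Gnao1* and *Prkca*, but not *Pcp2* (unadjusted p = 0.0611), were then lower at an unadjusted p of 0.05, beside 4.11%, with 0 higher beside 4.34%. The libraries of *Gnao1*, *Pcp2* and *Prkca* did not overlap after that scaling, all lower in Cre/Cre, beside 7.88%. For any difference among the genotypes and for a trend from 0 to 1 to 2 alleles of the knock-in 0 of the 10 genes passed the adjusted p by limma, beside 0.0132% and 0.00658% of all tested genes. At an unadjusted p of 0.05 the former held 1 of the 10 (*Pcp2*), beside 8.63%, and the latter 3 (*Grm6*, *Nyx* and *Pcp2*), beside 6.24%.

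In Cre/Cre replicate 1 the median of the 10 genes deviated by -0.23 from their means over the 9 libraries, beside -0.12 for all tested genes, and by -0.06 to 0.08 in the other 8 libraries. After median-ratio scaling the deviation in that library was -0.10, that of Cre/Cre replicate 2 was -0.08 and that of Cre/Cre replicate 3 was 0.0047. The 10 genes together made up 0.148% of all TPM in Cre/Cre replicate 1, 0.168% and 0.173% in the other Cre/Cre libraries and 0.175% to 0.189% in the other genotypes. Such a sum weighs the most abundant genes most, *Pcp2* above all. Gene by gene, only *Rgs11* had all Cre/Cre libraries below all +/+ libraries, beside 8.05% of all tested genes. The share of other sums so separated was not counted. The part of *Rn45s* in these values was not tested.

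**Figure D4:**
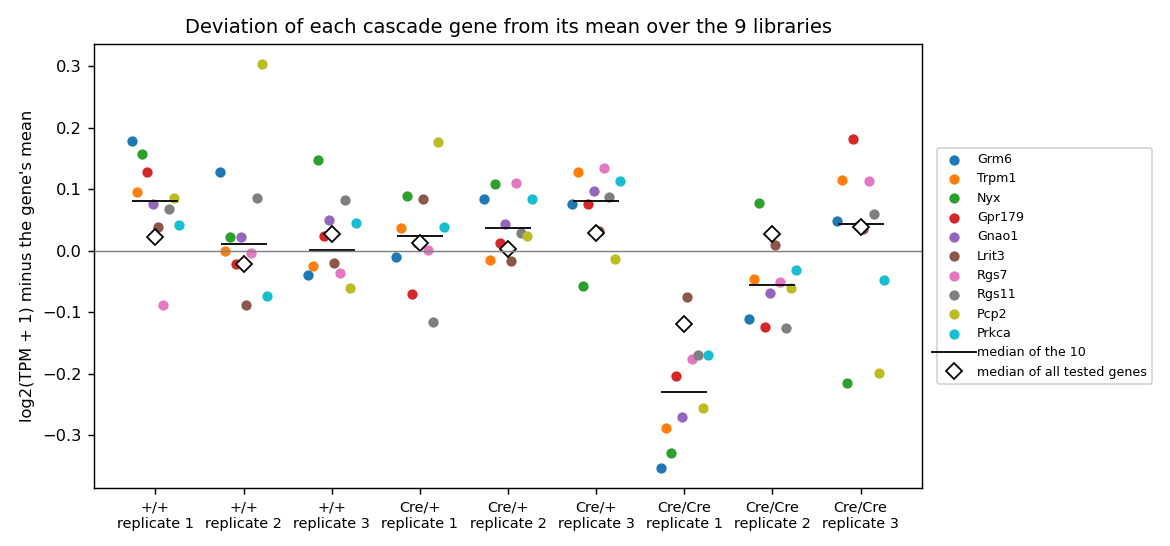
Deviation of log2(TPM + 1) of each cascade gene from its own mean over the 9 libraries, with the median of the 10 genes as a bar and the median of all 15198 tested genes as a diamond. The 10 genes lie between -0.35 and -0.08 in Cre/Cre replicate 1, where the diamond lies at -0.12.

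Of 8 partners of the cascade (the other Go subunits, RGS anchors and chaperones among them), 0 passed the adjusted p by limma in any comparison. In Cre/+ 2 were higher, beside 4.9% of all tested genes, and 1 was lower, beside 5.82%, at an unadjusted p of 0.05. In Cre/Cre 7 of the 8 were below 0, beside 57.7%, with a median of -0.06 on the log2 scale, and without Cre/Cre replicate 1 it was 4 of 8 with a median of 0.01, beside 43.8%. At an unadjusted p of 0.05, 1 of them was lower in Cre/Cre, beside 5.39%. That gene, named after its values were seen, was *Gnb3*, a G protein beta subunit that Go uses in ON bipolar cells. It stood at 598.9 ± 34.3 TPM in +/+ and 505.5 ± 28.5 in Cre/Cre (SD, n = 3), with Cre/+ between them at 566.5 ± 18.2. In whole retina its level cannot be assigned to ON bipolar cells alone. Its log2 fold change in Cre/Cre was -0.24 (SE 0.07, limma adjusted p = 0.543). Of the most abundant partners, log2 fold changes in Cre/Cre were -0.0016 for *Gnb5*, the beta subunit bound to RGS proteins, and -0.03 for *Rgs9bp*, the RGS anchor of photoreceptors.

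Of 9 genes of the photoreceptor side and the cleft, 0 passed the adjusted p by limma and 0 an unadjusted p of 0.05 in any of the 3 comparisons. In Cre/Cre 8 of the 9 were below 0, beside 57.7%, and their median was -0.08 on the log2 scale. Without Cre/Cre replicate 1 it was 6 of 9 with a median of -0.03, beside 43.8%. At an unadjusted p of 0.05, 0 were then lower, beside 3.58% of all tested genes, and 1 was higher, beside 5.9%. The values in Cre/Cre with all libraries were -0.15 for *Cabp4*, 0.10 for *Lrit2* and -0.09 for *Cacna2d4*, of which the first and the last serve the calcium channel of the photoreceptor terminal. *Elfn1*, the adhesion protein of photoreceptors that binds mGluR6, named for that role after its values were seen, stood at 76.4 ± 4.74 TPM in +/+ and 72.9 ± 10.8 in Cre/Cre.

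Of 12 further genes of bipolar cells that are shared by or typical of ON types, 0 passed the adjusted p by limma in any comparison. In Cre/Cre 10 of the 12 were below 0, beside 57.7%, with a median of -0.15. It was 7 of 12 without Cre/Cre replicate 1, beside 43.8%, with a median of -0.07. The transcription factor *Otx2* stood at 0.02 and the calcium-binding protein *Cabp5* at -0.22. At an unadjusted p of 0.05, *Scgn* (-0.24) and *Kcng4* (-0.38) were lower, 2 of 12 beside 5.39%, named after their values were seen, and their limma adjusted p values were 0.62 and 0.634. It was 1 of 12 without Cre/Cre replicate 1, beside 3.58%.

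Of 10 genes listed for OFF bipolar cells, which respond to glutamate through ionotropic receptors and do not use the cascade, 0 passed the adjusted p by limma. Whether these genes are confined to OFF cells was not tested. Their median in Cre/Cre was -0.06 with 8 of 10 below 0, beside 57.7%, and 0.07 with 4 of 10 below 0, beside 43.8%, without Cre/Cre replicate 1. *Grik1*, *Bhlhe22* and *Vsx1*, the most abundant of them, stood at -0.13, -0.06 and -0.05, and *Lhx3*, named after its values were seen, at -0.41 (unadjusted p = 0.00236), with a limma adjusted p of 0.542. Against Cre/+ the medians of OFF bipolar genes and of the cascade were -0.19 and -0.14, and both were -0.06 without Cre/Cre replicate 1. No test of the difference between these lists was made.

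Of 25 paralogs of the cascade genes, 0 passed the adjusted p by limma. Their median in Cre/Cre was -0.03 with 15 of 25 below 0, beside 57.7%, and 0.06 with 10 of 25 below 0, beside 43.8%, without Cre/Cre replicate 1. *Gnat1* and *Rgs9*, both of photoreceptors, stood at -0.09 and 0.06.

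**Figure D5:**
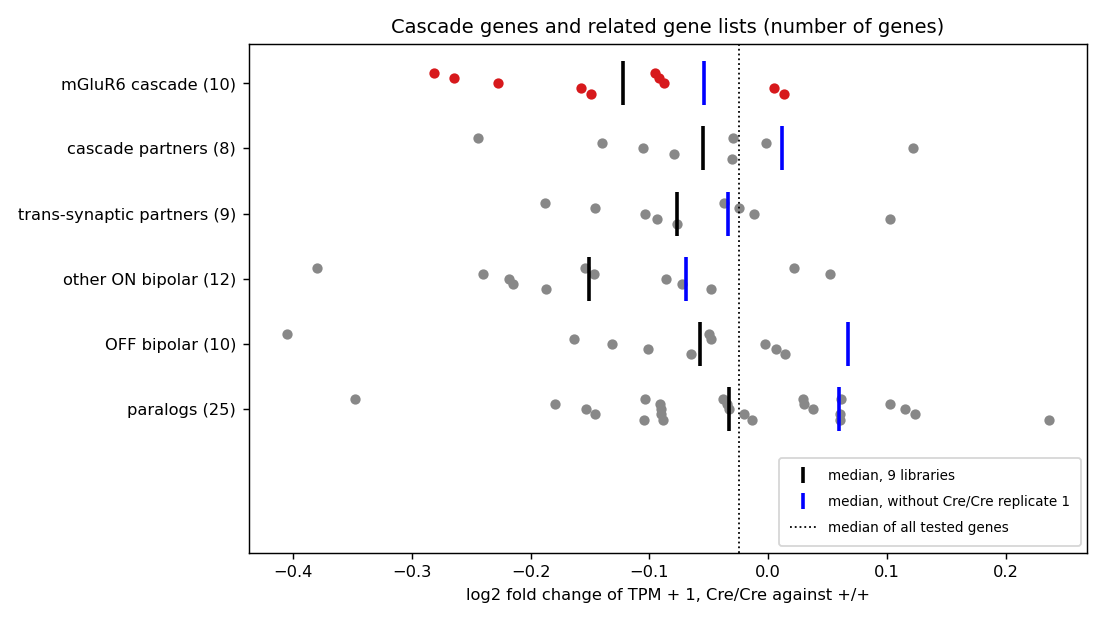
Log2 fold change of TPM + 1 in Cre/Cre against +/+ for the 10 cascade genes (red) and 5 related lists (grey), 1 point per gene, with list medians over 9 libraries (black bar) and without Cre/Cre replicate 1 (blue bar). The cascade median moves from -0.12 to -0.05 and that of the OFF bipolar list from -0.06 to 0.07, and the dotted line marks the median of all tested genes with all 9 libraries, -0.02.

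Of the markers of other cells, the summed levels of ganglion cell and blood genes did not overlap between the genotypes. The 6 ganglion cell markers, *Rbpms* among them, summed to 1288 to 1327 TPM in +/+, 1222 to 1257 in Cre/+ and 945.4 to 1129 in Cre/Cre. In Cre/Cre against +/+, 5 of the 6 were lower at an unadjusted p of 0.05, beside 5.39% of all tested genes, and *Rbpms* passed the adjusted p by limma, beside 0.00658%. At the unadjusted p it was 4 of the 6 without Cre/Cre replicate 1, beside 3.58%. The 5 rod markers summed to 44120 to 46620, 42760 to 44570 and 38330 to 44340 TPM, and 0 of them passed an unadjusted p of 0.05 in Cre/Cre, beside 5.39% lower and 1.58% higher among all tested genes. The sums of 5 cone markers (2332 to 2468 TPM in +/+ and 2267 to 2521 in Cre/Cre), 4 horizontal cell markers (99.3 to 117.9 and 89.6 to 108.7), 5 amacrine markers (734.6 to 767.5 and 671.4 to 771.9) and 5 Mueller glia markers (4221 to 4678 and 3892 to 4375) overlapped between +/+ and Cre/Cre. The Cre/Cre sums of the horizontal cell and Mueller glia markers lay below all Cre/+ libraries, at 112.5 to 117.3 and 4478 to 4743 TPM in Cre/+. *Calb1* and *Glul*, the most abundant, weigh most in these sums, and the share of other sums so separated was not counted. Gene by gene against Cre/+, 3 of 4 and 5 of 5 were below 0, beside 59.2% of all tested genes. At an unadjusted p of 0.05 by limma 2 of each were lower, beside 4.2%, and 0 higher, beside 2.38%. Within the cone list *Arr3* was higher (0.30, limma adjusted p = 0.542) and *Opn1sw* lower (-0.18, limma adjusted p = 0.679) at an unadjusted p of 0.05 in Cre/Cre, both named after their values were seen. Each was 1 of 5, beside 1.58% higher and 5.39% lower among all tested genes. Of tissue outside the neural retina, 5 lens markers reached 902.2 TPM in a Cre/Cre library against 123.6 to 176.8 in +/+, 4 pigment epithelium markers stood at 15.98 to 85.8 TPM in all libraries, and 5 blood markers at 184.7 to 300.5 TPM in Cre/Cre against 150.5 to 181.7 in +/+ and 92.5 to 104.7 in Cre/+. Among these, the globin *Hbb-bt* had a listed value of 0 in each Cre/+ library and passed the adjusted p by limma there. The 6 defining markers of ON bipolar cells, all of them genes of the cascade, were present in every library, with sums of 1116 to 1264, 1162 to 1212 and 950.6 to 1092 TPM in +/+, Cre/+ and Cre/Cre. All Cre/Cre sums thus lay below all +/+ and all Cre/+ sums, without median-ratio scaling. *Pcp2* was the largest part of each sum, at 514.2 to 662.4, 531.7 to 606.7 and 449.3 to 514.4 TPM. Taken singly, none of these 6 genes had all Cre/Cre libraries below all +/+ libraries. The share of other sums so separated was not counted. The part of these cells in the values of the cascade was not tested.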

How the data were processed

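Whole retinas of 9 mice were sequenced, 3 of each genotype. The authors made strand-specific poly(A) libraries, sequenced paired reads of 150 bases and used Trimmomatic for trimming, HISAT2 for alignment (mm10) and StringTie for gene levels. Versions, the annotation and StringTie's strand setting are not given in the sources used here. The authors deposited TPM, which sum to 1000000 in each library. The deposited FPKM corrects fragments for length and depth without fixing their sum. The deposited coverage gives the average depth of reads on a gene, and its ratio to FPKM, equal in 56.9% to 58.0% of rows of a library, gives the aligned gigabases by StringTie's formula. Counts were not used here, so counting error is unknown and the authors' DESeq2 comparison was not repeated.

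TPM was summed by gene name. The 15198 genes whose mean TPM reached 1 were tested with limma 3.58.1 in R 4.3.3 (trend, robust prior) on log2(TPM + 1), which understates the change of low genes, with genotype as the only term and 6 residual degrees of freedom. P-values were two-sided and adjusted by Benjamini-Hochberg over these genes. Groups came from the labels, and each replicate was a separate mouse. The 10 genes and the other lists were chosen with earlier results of these data known. All 10 genes were described, and of each other list the 3 most abundant genes and those past the adjusted p, and others are named as chosen after their values were seen. Of the most abundant genes of these lists, 2 are not reported here. Alternatives were a pseudocount of 0.1, median-ratio scaling, FPKM, no filter, a replicate block, *Xist* as a covariate, only the genotypes compared, no robust prior, and each library left out, and, after the data were seen, scaling without Cre/Cre replicate 1. The script was tested on simulated data. Python 3.11.15 and matplotlib 3.10.9 made the plots.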

Additional observations from a re-analysis of the deposited data

How the results depend on the processing

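The number of cascade genes past the adjusted p was 0 in each of the 5 comparisons under every alternative run, with limma. The smallest adjusted p of the 10 genes ranged from 0.337 to 0.993 in Cre/Cre against +/+ over the libraries left out in turn. Over those libraries the median log2 fold change of the 10 genes ran from -0.02 to 0.01 in Cre/+ against +/+, from -0.21 (without Cre/Cre replicate 3) to -0.0542 (without Cre/Cre replicate 1) in Cre/Cre against +/+, and from -0.19 to -0.06 in Cre/Cre against Cre/+. Under the other alternatives it ran from -0.04 to 0.009, from -0.17 with FPKM to -0.08, and from -0.16 to -0.08.

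Signs changed for genes near 0, the cause of which was not tested. In Cre/+ against +/+, *Gnao1* moved from 0.0015 to -0.0045 with median-ratio scaling, to -0.0242 with FPKM and to -0.0047 with scaling and without Cre/Cre replicate 1, and *Nyx* moved from -0.06 to 0.021 with *Xist* as a covariate. Leaving out libraries gave -0.0214 to 0.0209 for *Gnao1*, -0.10 to 0.0054 for *Grm6*, -0.0722 to 0.0050 for *Gpr179*, -0.13 to 0.0497 for *Pcp2* and -0.0124 to 0.0626 for *Trpm1*. In Cre/Cre against +/+, *Lrit3* was -0.0375 and *Rgs7* -0.0446 with FPKM, and *Rgs7* was -0.0244 with *Xist* as a covariate. Leaving out libraries gave -0.0193 to 0.0459 for *Lrit3*, -0.0710 to 0.0739 for *Rgs7* and -0.19 to 0.0120 for *Trpm1*. In Cre/Cre against Cre/+, *Gpr179* was 0.0036 with scaling and without Cre/Cre replicate 1, and -0.17 to 0.0223 over the libraries left out.

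Same-numbered libraries correlated by -0.116 to 0.128 in their deviations from the genotype means, which gave no sign that the replicate numbers pair the samples. Pairing by litter could not be tested. With the replicate number as a block the median in Cre/Cre against +/+ was -0.12 and the number of cascade genes past the adjusted p was 0. With 3 libraries a genotype and no counts, the precision is set by the spread between libraries. Each mouse gave a single library, so differences between mice and those of preparation cannot be told apart in that spread. The pooled spread within genotypes had a median of 0.11 on the log2 scale over the 10 genes, as it had over the 9194 tested genes with a mean in their range.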
